A study of Homo sapiens with 6 samples.

Results

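The 42 genes described here encode the core of the bone morphogenetic protein (BMP) and transforming growth factor-beta (TGF-beta) pathways. They were chosen by name and role from the 20033 protein-coding genes of the gene table. No measured value set the choice, but earlier results of these data were known when it was made. The 42 comprise 12 BMP, TGF-beta and activin ligands, 10 receptors, 6 receptor-regulated and common SMADs, 4 inhibitory SMADs and SMURFs, 2 SMAD corepressors, 4 extracellular antagonists and 4 ID genes. The readout was the position of peaks for MYT1L, a zinc-finger transcription factor of neurons, mapped by CUT&RUN, in which a nuclease tethered by an antibody cuts out the DNA around a chromatin protein for sequencing. MYT1L antibody was used for 4 libraries, and 2 control libraries used IgG, which has no specific target on chromatin. All 6 libraries came from wild-type cells of H1, an established human embryonic stem cell line, labelled day 30 and passages 10 to 60, with no treatment named. By the series title and design text these cells had been turned into cortical interneurons, but their cell type field reads embryonic stem cells. Peak lists hold no expression values, so the identity of the cells was not checked here. All libraries thus share 1 cell line, and nothing states that they came from separate cultures, so the p-values below measure the spread between these libraries, which may be technical.

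In this pathway a secreted ligand brings together type II and type I receptors, and the type II receptor phosphorylates the type I receptor. The type I receptor then phosphorylates SMAD proteins, SMAD1, SMAD5 and SMAD9 for BMPs and SMAD2 and SMAD3 for TGF-beta and activin, which enter the nucleus with SMAD4 and regulate targets such as the ID genes. Inhibitory SMADs, SMURF ubiquitin ligases, the corepressors SKI and SKIL and secreted antagonists dampen the signal. Blocking both branches is a common way to turn pluripotent cells towards the neural lineage, and BMPs later act in dorsal patterning of the forebrain.

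Reproducible MYT1L regions were found at most of the receptor and intracellular genes among these 42, mainly at gene starts. A region was a stretch of overlapping MYT1L peaks, and it was called reproducible when at least 3 of the 4 MYT1L libraries had a peak in it. A gene was counted when such a region, free of any IgG peak, overlapped its body or the 5 kb on either side. By that rule 28 of the 42 genes (66.7%) had a reproducible region, beside 48.0% of all protein-coding genes. All 12 SMAD, SMURF and corepressor genes and 9 of 10 receptor genes were counted, against 6 of 16 ligand and antagonist genes and 1 of 4 ID genes. These role classes were formed after the values had been seen, and the difference between them was not tested. A region in all 4 MYT1L libraries without an IgG peak was present at 13 of the 42 genes (31.0%), beside 25.3% of all genes.

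Promoter windows are shown for the 4 genes with the highest mean fold among those whose window overlaps a reproducible region free of IgG peaks. Each mean covers only the libraries with a peak in the region, 3 at SMAD4 and 4 at the other genes shown. The ranking is therefore not like for like. The regions extend past these windows, and many peak summits lie beyond the last base shown. At SMAD4 the summits lay 124 to 216 bp past the start. Each runs from 250 bases before to 50 bases after an annotated start, 5′ to 3′ on the strand of the gene, as given by RefSeq for GRCh38.p14. Capitals mark 3 motifs on either strand: AAGTT, the core bound by the MYT1 family; CAGAC, a SMAD3 and SMAD4 element; and GGCGCC, a SMAD1 and SMAD5 element.
TGFBR1: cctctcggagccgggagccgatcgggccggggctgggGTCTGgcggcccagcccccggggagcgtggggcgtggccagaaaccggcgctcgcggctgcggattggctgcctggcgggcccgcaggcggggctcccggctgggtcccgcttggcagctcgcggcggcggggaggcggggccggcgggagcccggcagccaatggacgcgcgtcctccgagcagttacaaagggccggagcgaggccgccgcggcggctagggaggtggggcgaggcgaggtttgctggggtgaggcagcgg
SMAD2: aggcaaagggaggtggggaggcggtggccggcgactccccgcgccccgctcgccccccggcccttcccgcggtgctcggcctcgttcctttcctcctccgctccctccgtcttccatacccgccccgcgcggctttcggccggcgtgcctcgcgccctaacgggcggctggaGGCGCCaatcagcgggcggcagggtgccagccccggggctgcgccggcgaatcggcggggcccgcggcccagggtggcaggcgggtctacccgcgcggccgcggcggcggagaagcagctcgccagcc
SMURF2: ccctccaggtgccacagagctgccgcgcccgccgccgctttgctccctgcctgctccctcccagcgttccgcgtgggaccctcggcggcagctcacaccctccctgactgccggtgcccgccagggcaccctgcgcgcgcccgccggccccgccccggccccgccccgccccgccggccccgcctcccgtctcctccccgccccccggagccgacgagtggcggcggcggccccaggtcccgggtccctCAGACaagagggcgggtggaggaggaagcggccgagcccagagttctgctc
SMAD4: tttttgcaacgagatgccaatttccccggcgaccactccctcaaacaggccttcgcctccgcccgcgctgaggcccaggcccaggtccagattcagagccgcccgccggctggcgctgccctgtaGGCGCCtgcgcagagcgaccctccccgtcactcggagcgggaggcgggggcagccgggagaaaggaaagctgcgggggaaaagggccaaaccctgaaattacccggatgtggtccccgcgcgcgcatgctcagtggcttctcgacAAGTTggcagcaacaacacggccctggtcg
The TGFBR1 window is chr9:99104863-99105162 on the plus strand and holds CAGAC as its complement GTCTG, 213 bases before the start. The SMAD2 window is chr18:47930823-47931122 on the minus strand and holds GGCGCC 78 bases before the start. In SMURF2, at chr17:64662258-64662557 on the minus strand, CAGAC begins 1 base before the start. SMAD4, at chr18:51029963-51030262 on the plus strand, holds GGCGCC 125 bases before the start and AAGTT 20 bases after the first transcribed base. Of these 4 windows, SMAD4 alone holds the MYT1-family core. A match is a string of letters and not a shown binding site.

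Each library was compared first as a whole. MYT1L replicates 1 to 4 had a peak at 35, 21, 31 and 39 of the 42 genes, beside 68.0%, 43.0%, 57.3% and 77.6% of all protein-coding genes. IgG replicate 1 had a peak at 0 and IgG replicate 2 at 3, beside 1.61% and 2.90% of all genes. Every MYT1L library was above both controls. The means were 31.5 ± 7.72 genes (SD, n = 4) and 1.5 ± 2.12 genes (SD, n = 2), a difference of 30 (exact permutation test over libraries, two-sided, p = 0.133, the smallest p that 4 against 2 libraries allow).

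The MYT1L libraries were deeper, with an estimated background of 2.25 to 5.99 fragments per kb against 0.951 and 1.55 in the controls. Reduced to the depth of IgG replicate 1, MYT1L replicates 1 to 4 kept an expected 9.32, 14.2, 9.18 and 27.6 of the genes, and the difference from the controls was 13.6. As shares these were 22.2%, 33.7%, 21.9% and 65.8%, beside 17.5%, 29.7%, 15.8% and 52.8% of all genes. Reduced to the depth of IgG replicate 2 they kept 4.53, 6.93, 4.33 and 17.2, and the difference was 6.75. These shares, 10.8%, 16.5%, 10.3% and 41.0%, lay near the 8.89%, 16.4%, 7.78% and 35.7% of all genes. The order of the groups did not change, and both differences again had p = 0.133 in the exact permutation test. The plot of genes with a peak in each library shows the shares as deposited and at the depth of IgG replicate 1, beside those of all genes.

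**Figure D1:**
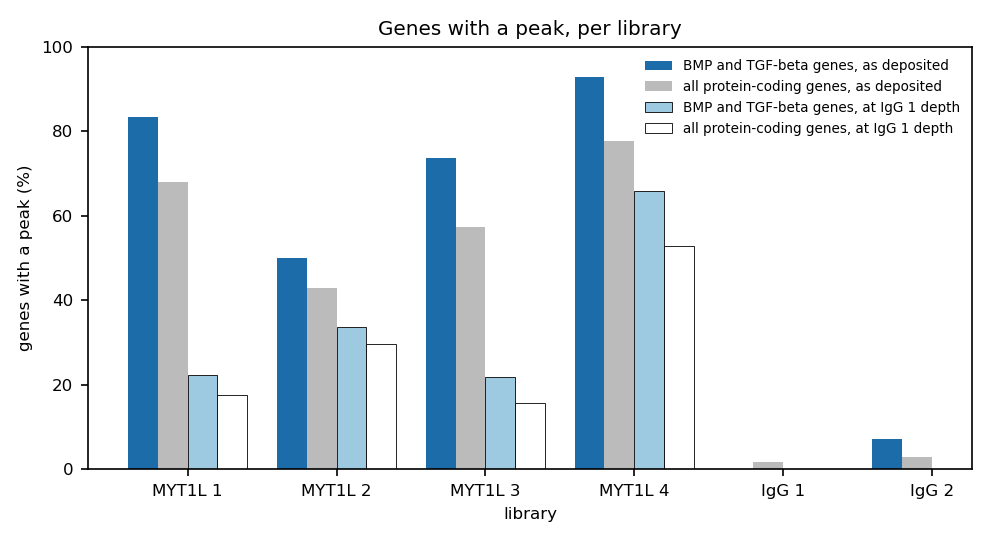
Percent of the 42 pathway genes and of all protein-coding genes with a peak in the gene body or within 5 kb, for each of the 6 libraries. Further bars give the shares expected for the MYT1L libraries at the depth of IgG replicate 1. As deposited, the 4 MYT1L libraries lie between 50% and 92.9% of the pathway genes, and the IgG libraries at 0% and 7.14%.

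Set against the number of peaks called, the groups overlapped. MYT1L replicates 1 to 4 had 18.3, 24.4, 21.6 and 21.9 peaks at the pathway genes per 10000 peaks in the list. IgG replicate 1 had 0 and IgG replicate 2 had 30.1, the latter resting on 3 peaks. The difference in means, 6.52 per 10000 peaks, was smaller than the spread between the controls (exact permutation test, two-sided, p = 0.667). Without IgG replicate 1 it turned to -8.51, and without IgG replicate 2 it was 21.5.

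The deposited peaks formed 82 MYT1L regions at the 42 genes. Of these, 35 were in 1 library, 11 in 2, 20 in 3 and 16 in all 4. The share in 3 libraries was 24.4% and in all 4 it was 19.5%, beside 12.9% and 12.1% of all MYT1L regions. The latter include regions away from genes, so the sets are unlike. Regions in 1 library had a median width of 255 bp, against 1016 bp for the 34 reproducible regions without an IgG peak. Joining overlapping peaks of several libraries widens a region by construction. Most of the 35 came from MYT1L replicate 4, which had 21 of them, while replicates 1 and 3 had 6 each and replicate 2 had 2. All but 2 of the genes had a MYT1L peak in at least 1 library, 40 of 42 beside 84.1% of all genes. The 2 with no peak in any library were BMP5, a BMP ligand, and CHRD, which encodes the BMP antagonist chordin.

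**Figure D2:**
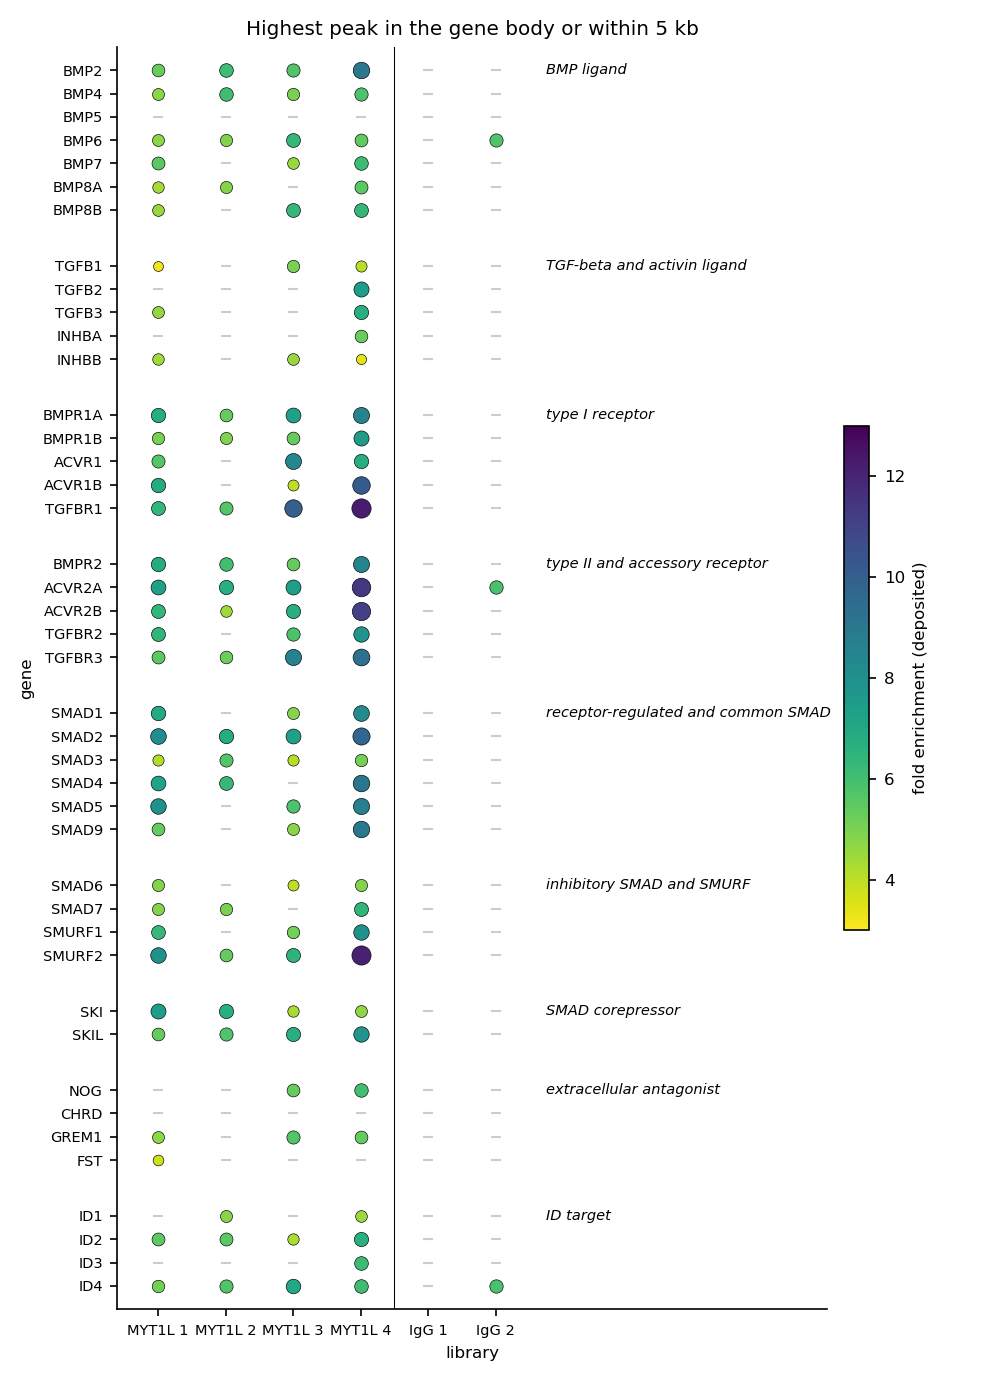
Fold enrichment, as deposited, of the highest peak in the gene body or within 5 kb for each of the 42 genes, by role, in the 4 MYT1L and 2 IgG libraries; darker and larger dots are higher and dashes mark no peak. Receptor and SMAD genes have peaks in most MYT1L libraries, and IgG dots are present at BMP6, ACVR2A and ID4.

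The type I receptors, kinases that hand the signal to SMADs, all had a reproducible region (5 of 5), and 3 had a region in all 4 MYT1L libraries. The highest peaks were at TGFBR1, the type I receptor for TGF-beta, in a region at chr9:99104675-99106027. The deposited fold enrichment fits the MACS formula, the pileup of fragments plus 1 over a local background plus 1. The source of that background is not stated. The added 1 lowers the fold more in shallow libraries, so folds are not comparable between MYT1L and IgG libraries. The order of folds among MYT1L libraries holds on this scale alone. At TGFBR1 the fold was 6.40, 5.66, 10 and 12.2 in MYT1L replicates 1 to 4 (8.57 ± 3.08, SD, n = 4). These values rest on pileups of 19, 9, 28 and 51 fragments. Replicate 4 was the highest and replicate 2 the lowest, and neither IgG library had a peak. The region had a higher mean fold than 90.7% of all regions in 4 MYT1L libraries without an IgG peak.

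BMPR1A and BMPR1B are the type I receptors for BMPs. At BMPR1A (chr10:86755835-86757419) the fold was 6.83, 5.38, 7.30 and 8.54 (7.01 ± 1.31, SD, n = 4), with summits a median 677.5 bp downstream of the nearest annotated start. At BMPR1B (chr4:94757955-94759047), the longest of the genes at 400 kb, it was 5.04, 4.93, 5.36 and 7.50 (5.71 ± 1.21, SD, n = 4). Replicate 4 stood above the other 3 libraries at BMPR1B. ACVR1, another BMP receptor, and ACVR1B, an activin receptor, had start regions in replicates 1, 3 and 4. Their mean folds were 6.95 ± 1.38 and 7.01 ± 3.07 (SD, n = 3).

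Among the type II and accessory receptors 4 of 5 had a reproducible region without an IgG peak. BMPR2, the BMP type II receptor, had such a region at its start (chr2:202375942-202377019) and another inside the gene (chr2:202534857-202535652), both in all 4 libraries. The start region had folds of 6.85, 5.60, 5.23 and 8.51 (6.55 ± 1.48, SD, n = 4). The inner region, with a median summit 158778 bp into the gene, had folds of 5.22, 6.04, 4.88 and 4.79 (5.23 ± 0.57, SD, n = 4). The difference between these means was smaller than the SD of the start region. Replicate 4 was the highest library at the start and the lowest at the inner region. TGFBR3, the accessory receptor betaglycan, had folds of 5.51, 5.26, 8.61 and 9.31 at chr1:91885547-91886426 (7.17 ± 2.09, SD, n = 4), low in replicates 1 and 2 and high in replicates 3 and 4.

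TGFBR2, the TGF-beta type II receptor, had a start region in replicates 1, 3 and 4 with a mean fold of 6.70 ± 1.0 (SD, n = 3), which also covers the start of another gene, LOC105377015. ACVR2B, an activin type II receptor, had a start region at 4.97 ± 1.44 and a region past its far end at 8.05 ± 2.62 (SD, n = 3 each). The second of these lies at the start of the neighbouring gene EXOG, so its peaks cannot be assigned to either gene. The fifth gene, ACVR2A, had folds of 7.30, 6.72, 7.38 and 11.4 at chr2:147843845-147844821 (8.20 ± 2.15, SD, n = 4), the highest mean of its role. It was not counted because IgG replicate 2 had a peak there, with a fold of 5.88 on a pileup of 7 fragments. The pileups in MYT1L replicates 1 to 4 were 20, 11, 15 and 51 fragments.

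All 6 receptor-regulated and common SMADs had a reproducible region at an annotated start. SMAD2, a TGF-beta and activin effector, was the highest of them, with folds of 8.10, 6.85, 7.31 and 9.72 at chr18:47930035-47931590 (8.0 ± 1.26, SD, n = 4) on pileups of 26, 12, 18 and 42 fragments. SMAD3, the other effector of that branch, was lower. Its folds at chr15:67065091-67065815 were 4.13, 5.71, 4.13 and 5.09 (4.77 ± 0.78, SD, n = 4), and the lowest SMAD2 library lay above the highest SMAD3 library. The BMP effectors SMAD1, SMAD5 and SMAD9 had regions in replicates 1, 3 and 4, with mean folds of 6.65 ± 1.71, 7.49 ± 1.47 and 6.39 ± 2.27 (SD, n = 3). SMAD4, the partner common to both branches, had its region in replicates 1, 2 and 4, with folds of 7.19, 6.29 and 9.07.

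The 4 genes for inhibitory SMADs and SMURFs also each had a reproducible region. SMURF2, a ubiquitin ligase that marks receptors and SMADs for degradation, had folds of 7.99, 5.38, 6.52 and 12.1 at chr17:64661778-64662637 (7.99 ± 2.93, SD, n = 4), with replicate 4 far above replicate 2. Its relative SMURF1 had a start region in replicates 1, 3 and 4 with a mean of 6.43 ± 1.4 (SD, n = 3). SMAD6 and SMAD7, the inhibitory SMADs, were lower, at 4.58 ± 0.50 in replicates 1, 3 and 4 and 5.43 ± 0.89 in replicates 1, 2 and 4 (SD, n = 3 each). Their summits also lay farthest from a start, a median 1650 bp downstream at SMAD6 and at -929 bp, which is upstream, at SMAD7.

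Both corepressors, which bind SMADs and recruit repressor complexes, had a region in all 4 libraries. SKIL had folds of 5.36, 5.76, 6.67 and 7.80 at its start (chr3:170356776-170358361, 6.40 ± 1.09, SD, n = 4). SKI had the lowest mean and the smallest SD of the 14 such regions at these genes, with folds of 4.24, 4.55, 4.29 and 3.99 at one end of the gene (chr1:2227506-2228057, 4.27 ± 0.23, SD, n = 4). Only 2.5% of all regions in 4 libraries had a lower mean. A higher region inside SKI (chr1:2281441-2282411) was found in replicates 1, 2 and 4, with folds of 7.46, 6.68 and 4.34.

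Secreted proteins as a class gave fewer reproducible regions, with 6 of 16 genes counted. The BMP ligands were above the share of all genes, with 5 of 7 counted (71.4%, beside 48.0%). BMP2 and BMP6 had a region in all 4 libraries. BMP2 had folds of 5.34, 6.13, 5.76 and 9.02 at one end of the gene (chr20:6767468-6768868, 6.56 ± 1.67, SD, n = 4), with replicate 4 above the other 3. BMP6 had folds of 4.76, 4.93, 6.36 and 5.45 at its start (chr6:7726002-7727748, 5.37 ± 0.72, SD, n = 4). A separate IgG peak lay inside BMP6, 116242 bp from the start, with a fold of 5.74 in IgG replicate 2 and no MYT1L region over it. BMP7, BMP8A and BMP8B had regions in 3 libraries with mean folds of 5.34 ± 0.79, 4.92 ± 0.62 and 4.86 ± 1.35 (SD, n = 3). BMP4 had peaks in all 4 libraries, but replicates 1 and 2 shared a region downstream of the gene and replicates 3 and 4 shared another at the start.

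None of the 5 TGF-beta and activin ligand genes had a reproducible region, although each had a peak in at least 1 MYT1L library. TGFB2 had the highest mean fold of the role, and it came from replicate 4 alone, 7.49 on a pileup of 17 fragments at the start. TGFB3 had start peaks in replicates 1 and 4, at 4.64 and 6.20. INHBB, a subunit of activin B, had a region before its start in replicates 1 and 3, at 4.37 and 4.55. TGFB1 and INHBA completed the role, with no region in more than 2 and 1 libraries respectively.

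Antagonists bind ligands outside the cell. Of these 4 genes GREM1 was counted, with folds of 4.68, 4.77 and 5.36 at its start in replicates 1, 3 and 4. NOG, which encodes the BMP antagonist noggin, had the highest mean fold of the role, from a region in replicates 3 and 4 at 5.37 and 6.01. FST, which encodes the activin antagonist follistatin, had 1 peak, in replicate 1, with a fold of 3.78.

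The counts by role class changed with the rule. With at least 2 of the 4 libraries required, they were 12 of 12 intracellular, 9 of 10 receptor, 11 of 16 secreted and 2 of 4 ID genes. The share of all genes was then 65.3%. With 1 library left out and 2 of the remaining 3 required, the 16 ligand and antagonist genes gave 8, 11, 8 and 9 without replicates 1, 2, 3 and 4, beside 55.4%, 63.3%, 59.9% and 49.3% of all genes. Under the same rules the intracellular genes stayed at 12 and the receptors at 9, and the ID genes gave 2, 1, 2 and 1. When all 4 libraries were required, the counts were 5 of 12 intracellular, 5 of 10 receptor, 2 of 16 secreted and 1 of 4 ID genes. The share of all genes under that rule was 25.3%. The TGF-beta and activin ligands gave 0, 3, 1 and 2 of 5 without replicates 1, 2, 3 and 4. When peaks needed a −log10 q of 5 or more, the counts were 6 of 12 intracellular, 8 of 10 receptor, 2 of 16 secreted and 1 of 4 ID genes, beside 30.6% of all genes. No IgG peak remained at ACVR2A or ID4 at that threshold, so ACVR2A and ID4 entered these counts, and ID2 left them.

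The ID genes encode proteins that block helix-loop-helix transcription factors and are direct targets of BMP signalling. Of the 4, ID2 was counted. It had a region past its end in all 4 libraries (chr2:8684947-8686052), with folds of 4.82, 5.54, 4.27 and 5.04 (4.92 ± 0.53, SD, n = 4), and a start region in replicates 1, 2 and 4. ID4 had folds of 5.13, 5.74, 7.0 and 6.11 at its start (chr6:19836814-19839154, 6.0 ± 0.78, SD, n = 4). It was left out of the count because IgG replicate 2 had a peak there with a fold of 5.88 on a pileup of 7 fragments. ID3 had peaks in replicate 4 alone, the highest at 6.17, and ID1 had 1 region shared by replicates 2 and 4. In all, 3 genes had an IgG peak (ACVR2A, BMP6 and ID4), beside 4.16% of all genes, and all 3 peaks were in IgG replicate 2.

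**Figure D3:**
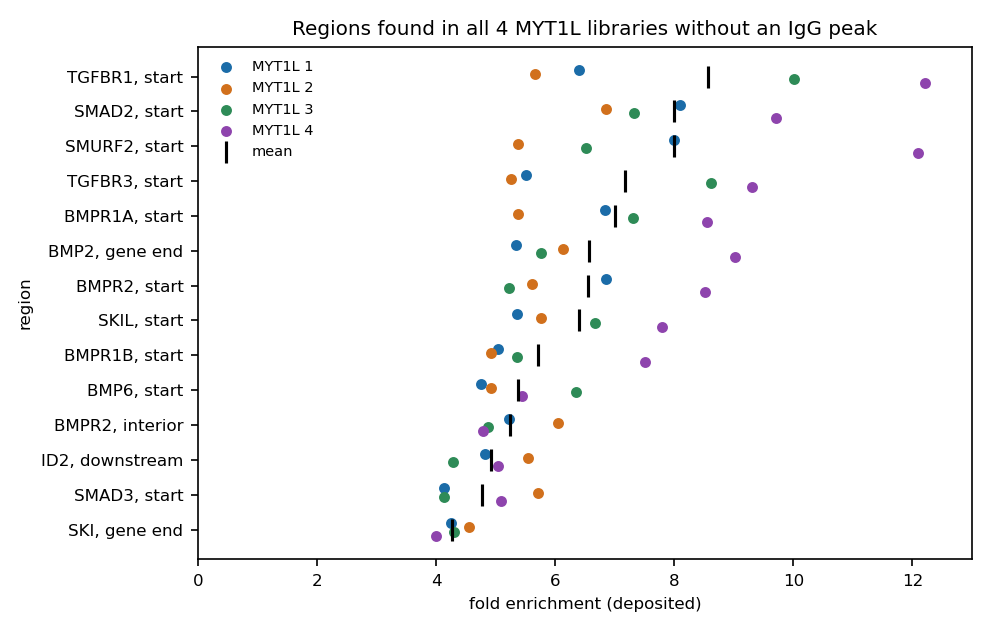
Deposited fold enrichment in each MYT1L library at the 14 regions, at 13 genes, that had a peak in all 4 MYT1L libraries and none in IgG; bars mark means. Means run from 4.27 at SKI to 8.57 at TGFBR1, and replicate 4 is the highest library at 9 of the 14 regions.

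The heights of these regions lay near those found elsewhere in the genome. The 14 regions in all 4 libraries had mean folds of 4.27 to 8.57, with a median of 6.47, and the 5030 such regions of the genome had a median of 6.72. Replicate 4 was the highest library at 9 of the 14 (64.3%), beside 74.5% of all such regions, and replicate 2 at 4. Of the 20 regions in 3 libraries, replicate 2 was missing at 13 (65.0%) and replicate 3 at 7 (35.0%), beside 64.8% and 24.2% of all regions of that kind. Replicate 2 was also the shallowest MYT1L library, and the part of its depth in these gaps was not tested.

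Reproducible regions sat at gene starts. Of the 38 genes with an annotated start in the promoter table, 25 had a reproducible region without an IgG peak within 1 kb of one, beside 41.9% of all genes in that table. Over the 34 reproducible regions, 28 (82.4%, 95% Wilson interval 66.5% to 91.7%) lay at a start or, for SKI, BMP2 and BMP7, at one end of the gene. The share for all protein-coding genes, counted the same way, was 70.2%. Of the 35 regions in 1 library 12 (34.3%) did so. A region counted when any summit in it lay within 1 kb. Peaks joined from more libraries thus gave more chances, so these shares are not like for like. At SMAD6 the placement rested on the replicate 4 summit, at 882 bp. Intervals cover counting error only, and regions are not independent. At the 25 start regions the median summit lay between -929 and 1650 bp of the nearest start, with a median of 75 bp, and the summits of different libraries spread over 92 to 1326 bp. The closest summits, over 92 bp, were at SMAD4 and SMAD9, and the widest spread was at BMP6.

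**Figure D4:**
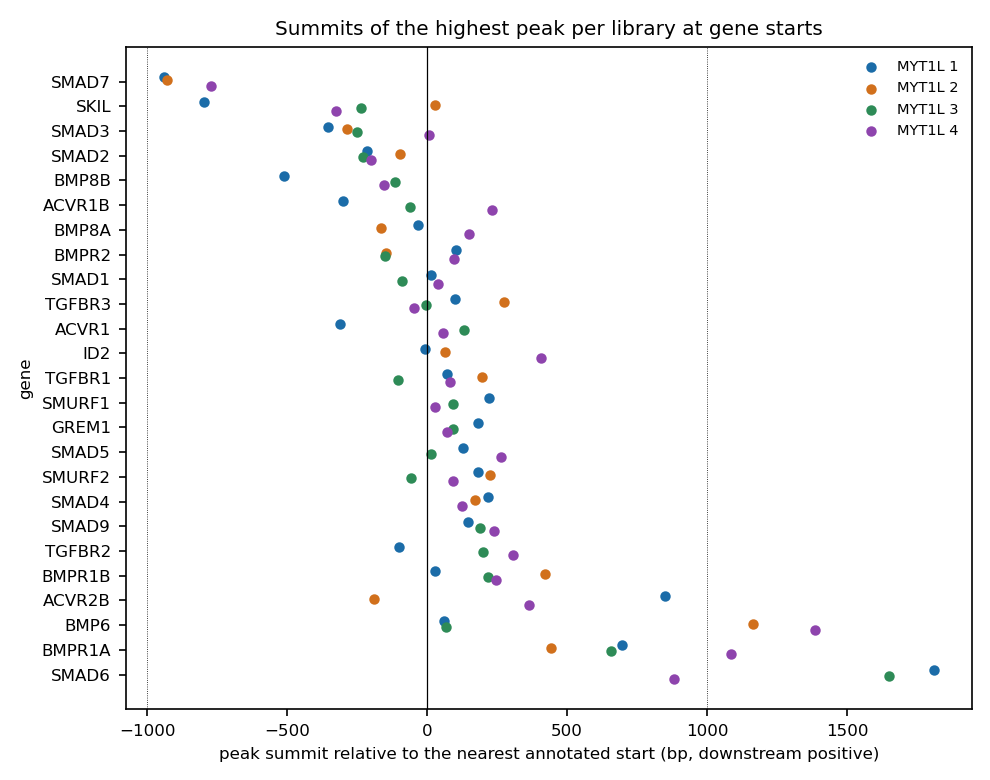
Distance in bp from the nearest annotated start to the summit of the highest peak of each MYT1L library, at the 25 start regions, ordered by the median; negative values are upstream. Most summits lie close to the start, and those of SMAD7 and SMAD6 lie farthest out, at medians of -929 and 1650 bp.

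Gene length and base composition moved with these counts. Of the genes under 10 kb, 1 of 8 had a reproducible region, which was ID2, beside 30.9% of all genes of that length. The counts were 9 of 13 from 10 to 50 kb, 8 of 10 from 50 to 100 kb and 10 of 11 over 100 kb, beside 48.0%, 59.0% and 67.6%. The median length was 50.2 kb, against 24.1 kb over all protein-coding genes. By role class it was 79.5 kb for intracellular, 114 kb for receptor, 24.3 kb for secreted and 1.99 kb for ID genes. Among secreted proteins 6 of the 12 genes over 10 kb were counted and 0 of the 4 shorter ones. The part of length in the difference between roles was not tested.

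**Figure D5:**
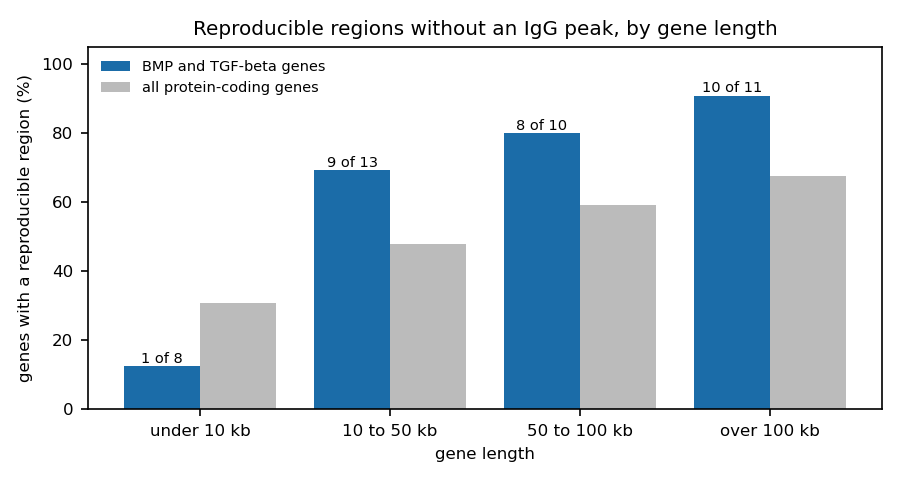
Percent of genes with a reproducible MYT1L region free of IgG peaks, by gene length, for the 42 pathway genes and all protein-coding genes. Both rise with length, from 12.5% and 30.9% under 10 kb to 90.9% and 67.6% over 100 kb.

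The promoter windows were compared at the 5′-most annotated start of each gene. They had a median GC content of 70.3% over the 38 genes and 62.7% over 15841 genes. With a reproducible region at the start it was 73.0% over 25 pathway genes and 66.7% over all such genes, and without one it was 62.7% over 13 pathway genes and 58.7% over all. AAGTT, searched on both strands, was in 14 of the 38 windows (36.8%) and in 29.4% of all windows. It was in 9 of the 25 windows of genes with a start region and in 5 of the 13 others, and over all genes in 23.1% and 34.0%. CAGAC was in 17 (44.7%) and GGCGCC in 12 (31.6%), beside 44.3% and 25.1% of all windows. TGFBR1 has an earlier annotated start with a window at chr9:99103397-99103696 that holds AAGTT, but its region, like the window printed above, lies at the later start. At SMAD1, SMAD6, SMAD7 and TGFBR2 the counted window with AAGTT also lies outside the reproducible region. The later SMAD1 window, which overlaps its region, holds no AAGTT, and the later TGFBR2 window, which overlaps its region, holds it. Of the 9 windows, only those of ACVR1B, ACVR2B, BMPR1B and SMAD4 are thus reached by their regions. How often a counted window lies outside its region over all genes was not counted. The longer core AAAGTT, which contains AAGTT, was in 2 of the 38 windows (5.26%) and 10.6% of all.

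The other genes of the pathway had fewer regions. Of 67 further ligands, receptors, regulators and targets, 23 (34.3%) had a reproducible region without an IgG peak, below the 48.0% of all genes, and 14 had no MYT1L peak. By role the counts were 10 of 20 intracellular regulators and targets, 6 of 17 extracellular regulators, 6 of 21 ligands and 1 of 9 receptors and co-receptors. Their median length, 19.8 kb, was below that of the 42 genes. Regions in all 4 MYT1L libraries without an IgG peak were ranked by mean fold, and the 6 highest genes were STRAP, TWSG1, TRIM33, CCN2, RGMB and BMP3.
STRAP, a partner of SMAD7 at TGF-beta receptors, had folds of 6.29, 5.32, 6.34 and 14.6 in MYT1L replicates 1 to 4 (8.13 ± 4.33, SD, n = 4), with replicate 4 far above the other 3. TWSG1, which modulates BMP with chordin, had folds of 5.99, 7.68, 6.73 and 10.2 (7.65 ± 1.83, SD, n = 4). TRIM33, which binds SMADs, had 5.88, 5.78, 6.08 and 9.41 (6.79 ± 1.75, SD, n = 4). In both TWSG1 and TRIM33 replicate 4 was the highest. CCN2, a TGF-beta target, had 7.17, 4.80, 7.40 and 6.54 (6.48 ± 1.17, SD, n = 4), with replicate 2 the lowest. RGMB, a BMP co-receptor, had 5.62, 7.29, 4.77 and 7.72 (6.35 ± 1.39, SD, n = 4). The ligand gene BMP3 had 5.04, 5.97, 6.83 and 6.77 (6.15 ± 0.84, SD, n = 4). All 6 means lay within the range of the 14 regions above.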

How the data were processed

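Peak lists of 4 MYT1L and 2 IgG CUT&RUN libraries were used, grouped and numbered by the sample titles. In the MYT1L lists the numbers within peak names run 1 above those titles, which were followed. The submitters' processing notes name MACS2 and hg38. The aligner, thresholds and control library are not given in the sources used here, and each library had its own list. Each deposited peak has a score, a fold (a ratio to local background), a −log10 p and a −log10 q, all the authors' own values, and a summit position. The deposited values were used to describe and filter peaks and to estimate the depth on which the thinning rests.

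Peaks on chromosomes 1 to 22, X and Y sharing at least 1 bp formed regions, and genes came from RefSeq GRCh38.p14, whose promoter table held 38 of the 42 genes. SKI, NOG, BMP2 and BMP7 were placed by either end of the gene. Where a table has several starts, distances use the nearest and motif counts the 5′-most. Depth was estimated by solving the MACS formulas for pileup and background, taking the background as each library's own. Whole pileups fitted at least 99.97% of peaks with a −log10 p up to 200, within 0.0002. Thinning was binomial. Depth in total reads is unknown. Scripts used Python 3.11.15, pandas 2.3.3 and scipy 1.17.1, were checked against bedtools 2.31.1 and tested on simulated data. The exact permutation test ran over the 15 splits of 6 libraries into 4 and 2.

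The genes and lists were chosen with earlier results of these data known. Described with every library's value were genes with an IgG-free region shared by all 4 MYT1L libraries, genes with an IgG peak and the highest mean fold in each role; of the other pathway genes, the 6 highest in all 4 libraries. The same replicate number in MYT1L and IgG libraries is not stated to pair them. Alternatives covered thresholds, windows, overlap, library rules, depth, leaving out libraries and, chosen after seeing the data, counts by role class. Exons were not assigned, and motifs at summits were not searched.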

Additional observations from a re-analysis of the deposited data

Results flagged for a closer look

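Of 17 groups of 4 libraries tested for a value far from the rest, 1 was found, the number that chance, at about 1 in 20 groups, would give. At the start region of BMPR1B, a BMP type I receptor, the fold was 7.50 in MYT1L replicate 4 and between 4.93 and 5.36 in the other 3 MYT1L libraries. The gap to the nearest library was 0.830 of the whole range.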

How the results depend on the processing

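The 28 genes with a reproducible region became 17 with a −log10 q of at least 5 (40.5% of the 42, beside 30.6% of all genes). They became 13 when all 4 libraries were required (31.0%, beside 25.3%). Equal numbers of top peaks from each library gave 19 (45.2%, beside 33.7%), and leaving out each library in turn, with 2 of 3 MYT1L libraries then required, gave 28 to 33, beside 48.7% to 63.3% of all genes. Of 16 alternatives 14 stayed within 1.5 times the count. The difference in genes with a peak stayed positive in all 13 alternatives, between 6.75 and 33.5, and was 27.5 to 33.5 with a library left out. The difference per 10000 peaks reversed to -8.51 without IgG replicate 1 and was up to 21.5 with another library left out. It kept its direction in the other 12 alternatives, reaching 22.6 with a −log10 q of at least 5, where IgG replicate 2 lost its peaks at these genes. With the replicate number as a block (replicates 1 and 2, exact sign-flip test) the differences were 26.5 (p = 0.5) and 6.29 (p = 1); 2 pairs cannot give a p below 0.5, and the libraries share only a number. The regions at these genes numbered 62 to 94 over 8 alternatives, and the share at starts ranged from 73.3% to 90.0% over 15. AAAGTT in place of AAGTT reduced the promoter count from 14 to 2, the longer string being found less often by construction. The IgG libraries were the shallowest, which limits what a missing peak in them shows.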
